A study of Mus with 6 samples.

Results

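Activated helper T cells build an effector program around a small group of transcription factors, and 8 of their genes are described here in CD4+ T cells in which VEGF-B was neutralized. They are *Irf4*, *Irf8*, *Irf2*, *Batf*, *Batf3*, *Prdm1*, *Nfil3* and *Bach2*, chosen by symbol among 10995 listed protein-coding genes. *Irf4* entered the group because it had been seen among the largest falls with anti–VEGF-B, and the other genes were added as its relatives and partners with the results of this comparison known. Their differences between the treatments are therefore a description. Whether a gene passed the threshold used for all genes is stated, but is not evidence for a gene chosen in this way.

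Naive CD4+ T cells from the spleen of WT mice were stimulated for 3 days with anti-CD3 at 5 μg/mL, anti-CD28 at 2 μg/mL and IL-2 at 100 U/mL. A neutralizing anti–VEGF-B antibody or normal goat IgG, the control, was added at 1 μg/mL, and each treatment is represented by 3 RNA-Seq libraries. All 6 libraries thus come from WT cells under the same stimulation, and no unstimulated or VEGF-B–deficient cells were part of the comparison. The sources used here do not say whether the replicates came from separate mice or cultures, so that the spread between them may be technical. The comparison asks how gene expression in activated T cells differs when VEGF-B is neutralized. The age and number of the mice, and any pooling of cells, are not given in the sources used here.

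IRF4 is induced by signals of the T cell receptor (TCR), and more of it is made when the signal is stronger. It binds DNA poorly alone and acts at composite sites together with BATF, an AP-1 protein of the basic leucine zipper type that pairs with JUN proteins. Through these sites it opens the programs of effector T cells. BLIMP-1, the product of *Prdm1*, represses genes at the end of effector differentiation, whereas BACH2 holds back the effector program at sites that AP-1 proteins also use.

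Levels are given in FPKM, which correct for the length of a transcript and the size of a library, so that levels of different genes can be set side by side. Differences are given on the scale of log2(FPKM + 1) and were fitted with limma for the 8816 genes whose mean reached 1 FPKM, a limit that all 8 genes passed. The median difference of all tested genes was -0.15 with anti–VEGF-B, and the difference of each of the 8 genes is also given relative to this median. Differences of single other genes are given without subtracting it, so part of a small fall is shared with all genes. Genes count as called where the adjusted p was under 0.05 (limma, Benjamini-Hochberg adjustment over all tested genes), which held for 28.7% of them, 23.8% lower and 4.87% higher with anti–VEGF-B. The FPKM summed to between 260058 and 276622 per library. The depth behind the values is unknown, since FPKM keep no count of reads. All 6 T cell markers, including *Cd3e* and *Cd4*, were present, with sums between 395 and 456 FPKM per library. Markers of B cells, NK cells and CD8+ T cells summed to at most 4.69 FPKM in any library, over 1 of 5, 1 of 3 and 2 of 2 markers with values. Of the 2 CD8+ T cell markers, *Cd8a* was at most 0.182 FPKM and listed at 0 in anti–VEGF-B replicate 1. The other, *Cd8b1*, was between 2.27 and 4.51 FPKM. The sum of 3 of 8 dendritic cell and macrophage markers was 19.8 FPKM in IgG replicate 3 and between 3.95 and 5.11 in the other libraries, mostly through *Lyz2* at 16.4 FPKM there. Without this library, 1842 of all tested genes and 4 of the 8 genes were called, and no difference of the 8 genes changed sign. The other 5 dendritic cell and macrophage markers had no values.

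With IgG, the order of the 8 levels was *Nfil3*, *Irf4*, *Irf8*, *Batf*, *Bach2*, *Irf2*, *Prdm1* and *Batf3*. *Nfil3* stood at 403 ± 30.1 FPKM (SD, n = 3, as for all means given), above 98.9% of listed genes. *Irf4* followed at 96.0 ± 34.2, then *Irf8* at 44.2 ± 5.24 and *Batf* at 41.0 ± 8.86. Of the 7 neighbouring pairs in this order, only *Irf8* and *Batf* had replicates that overlapped. The lowest level was that of *Batf3*, at 3.90 ± 0.615 FPKM, above 46.8% of listed genes.

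With anti–VEGF-B the order was different. *Nfil3* remained first, but *Irf4* moved from position 2 to position 4, behind *Irf8* at 38.0 ± 3.59 FPKM and level with *Batf*. *Batf* and *Irf4* had 28.9 ± 4.95 and 28.7 ± 5.25 FPKM, and their replicates overlapped. *Irf2* and *Bach2* also overlapped, at 21.7 ± 1.43 and 21.4 ± 2.74, whereas every IgG replicate of *Bach2* lay above every IgG replicate of *Irf2*. Among all 10995 listed genes, *Irf4* went from rank 359 with IgG to rank 1286 with anti–VEGF-B.

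**Figure D1:**
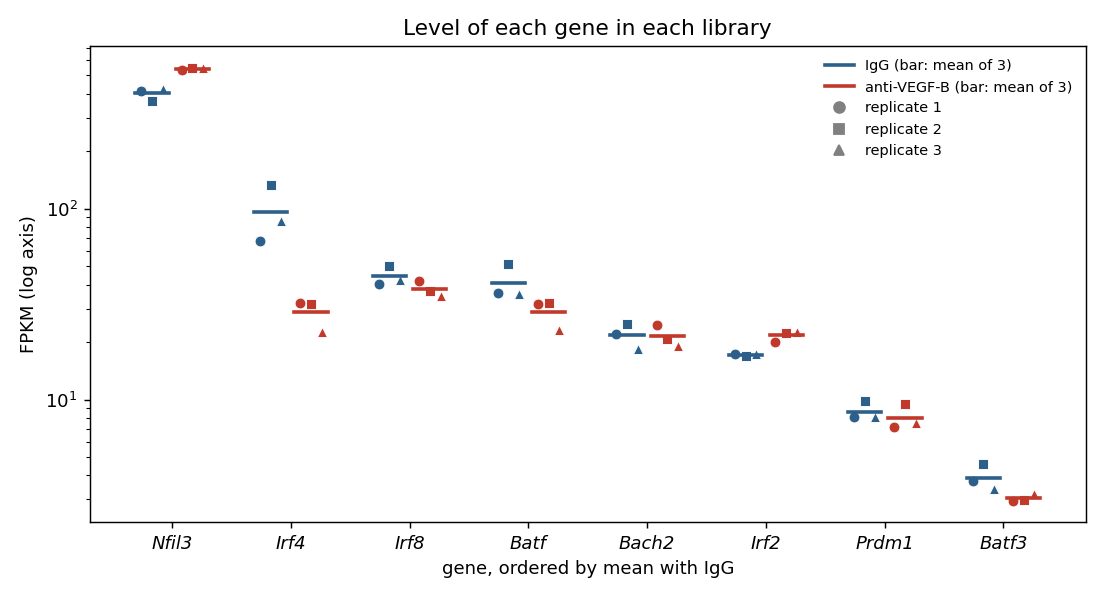
FPKM of the 8 genes on a log axis, with the 3 IgG libraries in blue and the 3 anti–VEGF-B libraries in red; symbols mark the replicate number and bars the mean of 3. *Irf4* shows the widest gap between treatments, *Nfil3* and *Irf2* are higher with anti–VEGF-B, and *Prdm1* and *Bach2* overlap.

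Among the IRF genes, *Irf4* was lower and *Irf2* higher with anti–VEGF-B, while *Irf8* overlapped between the treatments. *Irf4* (chromosome 13 of GRCm38, 30749226 to 30766976, plus strand) was at 67.5, 134 and 86.6 FPKM in IgG replicates 1, 2 and 3. In anti–VEGF-B replicates 1, 2 and 3 it was at 32.0, 31.5 and 22.6. Every anti–VEGF-B library lay under every IgG library, and the mean was 3.34-fold higher with IgG. The difference was -1.67 on the log2 scale (standard error 0.224), or -1.51 relative to all genes. It ranked 4 among the falls of all tested genes, which is the property it was chosen for. In bulk RNA, fewer cells that make a transcript cannot be told apart from less transcript per cell.

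The IgG libraries themselves differed in *Irf4*, with a coefficient of variation of 35.6% against a median of 10.6% over all tested genes. IgG replicate 2 carried the highest *Irf4* value. It was also the highest IgG library for 6 of the 8 genes and for 59.3% of all tested genes. Without it, the difference in *Irf4* was -1.40.

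*Irf8* (chromosome 8, 120736358 to 120756694, plus strand) encodes the closest relative of IRF4 and is best known from B cells and dendritic cells. It was at 40.3, 50.2 and 42.2 FPKM with IgG and at 41.9, 37.1 and 34.9 with anti–VEGF-B. The highest anti–VEGF-B library lay above the lowest IgG library, and *Irf8* was not called. Its difference was -0.21 (standard error 0.103), or -0.060 relative to all genes, and -0.24 without IgG replicate 3, the library with more dendritic cell and macrophage marker RNA.

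*Irf2* (chromosome 8, 46739732 to 46847458, plus strand) encodes a factor that competes with IRF1 at interferon response elements. It was at 17.4, 16.8 and 17.4 FPKM in the IgG libraries, which differed by little, and at 20.0, 22.3 and 22.6 with anti–VEGF-B. Every anti–VEGF-B library was above every IgG library. The mean was 1.26-fold higher, a difference of 0.32 (standard error 0.0789), or 0.47 relative to all genes. *Irf2* was not called without anti–VEGF-B replicate 2 (0.29), anti–VEGF-B replicate 3 (0.29) or IgG replicate 2 (0.30), nor with no moderation of the variance. The noncoding genes *Gm31172* and *Gm39170* overlap this locus, and reads could be shared with them.

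The BATF genes were lower with anti–VEGF-B by smaller amounts. *Batf* (chromosome 12, 85686669 to 85709087, plus strand), which encodes the AP-1 partner of IRF4, was at 36.3, 51.3 and 35.6 FPKM with IgG and at 31.6, 31.9 and 23.2 with anti–VEGF-B. The groups did not overlap, but the lowest IgG value and the highest anti–VEGF-B value were close. The mean was 1.42-fold higher with IgG, a difference of -0.48 (standard error 0.160), or -0.33 relative to all genes. *Batf* was called as deposited but in only 2 of 14 alternatives, and in none of the 3 other scalings between libraries.

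*Batf3* (chromosome 1, 191097847 to 191108945, plus strand) encodes a shorter relative that is known for the development of cross-presenting dendritic cells and is also made by activated T cells. It was at 3.73, 4.58 and 3.39 FPKM with IgG and at 2.95, 2.97 and 3.21 with anti–VEGF-B. The groups did not overlap, yet *Batf3* was not called. Its difference was -0.27 (standard error 0.114), or -0.12 relative to all genes. Among the IgG libraries it was lowest in replicate 3, and without that library the difference was -0.35. Without IgG replicate 2 the difference was -0.17. It was -0.040 after quantile normalization, -0.070 after median centring and -0.22 when scaled to *Actb*.

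Of the repressors, *Nfil3* was higher with anti–VEGF-B, whereas *Prdm1* and *Bach2* overlapped. *Nfil3* (chromosome 13, 52967209 to 52981073, minus strand) encodes a basic leucine zipper repressor that is induced in activated T cells and also acts in the circadian clock. It was at 415, 369 and 426 FPKM with IgG and at 536, 544 and 549 with anti–VEGF-B. The anti–VEGF-B libraries were tightly grouped and all lay above the IgG libraries. The mean was 1.35-fold higher, a difference of 0.43 (standard error 0.0785), or 0.58 relative to all genes. *Nfil3* was above 0 in all 14 alternatives and was called in 13 of them.

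*Prdm1* (chromosome 10, 44437177 to 44528501, minus strand) was at 8.13, 9.77 and 8.06 FPKM with IgG and at 7.15, 9.46 and 7.50 with anti–VEGF-B. Replicate 2 was the highest library in each group. The difference was -0.10 (standard error 0.121), or 0.052 relative to all genes, and it was above 0 after quantile normalization (0.072) and median centring (0.10).

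*Bach2* (chromosome 4, 32238804 to 32586108, plus strand) was at 22.1, 24.8 and 18.4 FPKM with IgG and at 24.5, 20.8 and 19.1 with anti–VEGF-B. The groups overlapped over most of their range. The difference was -0.019 (standard error 0.123), or 0.13 relative to all genes, and it was above 0 under each of the 3 other scalings, and also without anti–VEGF-B replicate 3 (0.057) or IgG replicate 2 (0.074). The antisense gene *Bach2os* overlaps this locus. The libraries were made with a stranded kit, but the sources used here do not say whether strand was used in quantification. Reads of the pair may therefore have been shared.

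Over the group, 4 of 8 genes were called, against 28.7% of all tested genes, *Irf4* and *Batf* lower and *Irf2* and *Nfil3* higher. The groups did not overlap for 5 of 8 genes, against 49% of all tested genes. The median difference of the 8 genes was -0.16, close to the -0.15 of all tested genes. As the genes were chosen with these differences known, nothing is read from these counts. Without moderated variances, 0 of the 8 genes were called by limma, against 12 of all 8816 tested genes. In that fit 3 of the 8 genes had an unadjusted p under 0.05, against 3208 of all 8816.

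**Figure D2:**
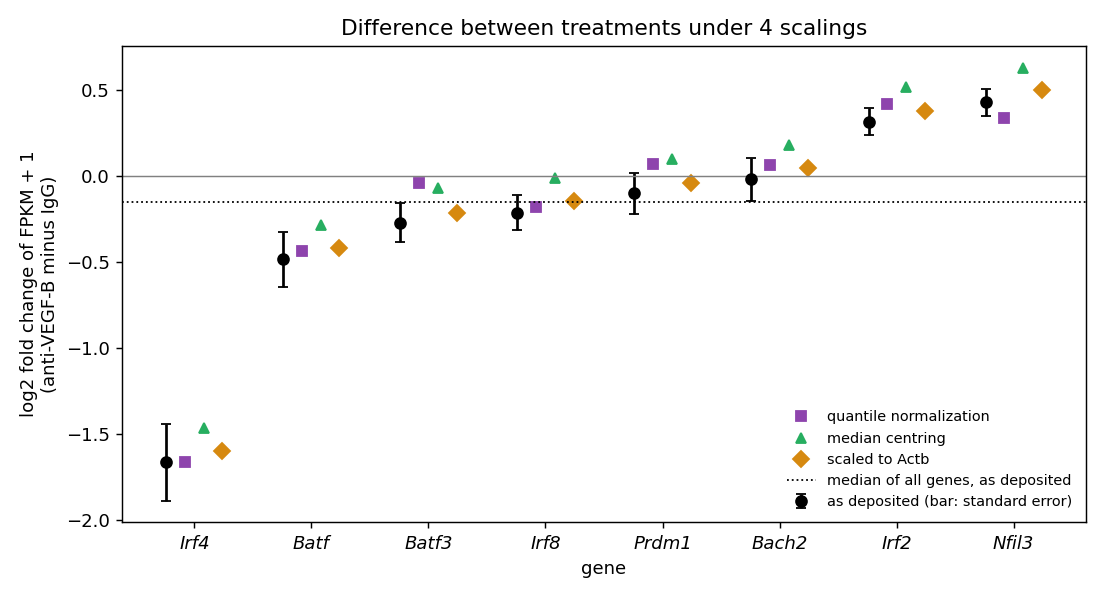
Difference between anti–VEGF-B and IgG on the log2(FPKM + 1) scale for the 8 genes, as deposited (black, bars are standard errors) and under 3 other scalings between libraries (quantile normalization, median centring, scaled to *Actb*); the dotted line is the median of all tested genes. *Irf4* lies between -1.67 and -1.46 under these scalings, *Irf2* and *Nfil3* stay above 0, and *Prdm1* and *Bach2* lie on either side of 0.

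A ratio of FPKM within 1 library is not changed by a factor applied to the whole library, though quantile normalization could change it. The ratio of *Irf4* to *Batf* was 1.86, 2.61 and 2.43 in the IgG libraries. In the anti–VEGF-B libraries it was 1.01, 0.987 and 0.976. With anti–VEGF-B, *Irf4* and *Batf* were thus nearly equal in each library, with a spread of 0.0179 around a mean of 0.991, while with IgG the mean was 2.30 ± 0.392.

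The ratio of *Irf4* to *Irf8* was 1.67, 2.67 and 2.05 with IgG and 0.762, 0.850 and 0.648 with anti–VEGF-B. *Irf4* was thus above its relative in every IgG library and below it in every anti–VEGF-B library. The ratio of *Irf4* to *Irf2*, which differed in opposite directions, was 3.89, 7.96 and 4.99 with IgG and 1.60, 1.41 and 1.00 with anti–VEGF-B. These 3 ratios contain *Irf4*, whose fall was the reason for its choice.

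The pairs without *Irf4* overlapped between the treatments. The ratio of *Prdm1* to *Bach2* was 0.367, 0.394 and 0.437 with IgG and 0.292, 0.455 and 0.393 with anti–VEGF-B. Its log2 difference was -0.080, and 0.084 without anti–VEGF-B replicate 1. The ratio of *Batf* to *Batf3* was 9.73, 11.2 and 10.5 with IgG and 10.7, 10.8 and 7.24 with anti–VEGF-B, where replicate 3 was the lowest of all libraries.

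**Figure D3:**
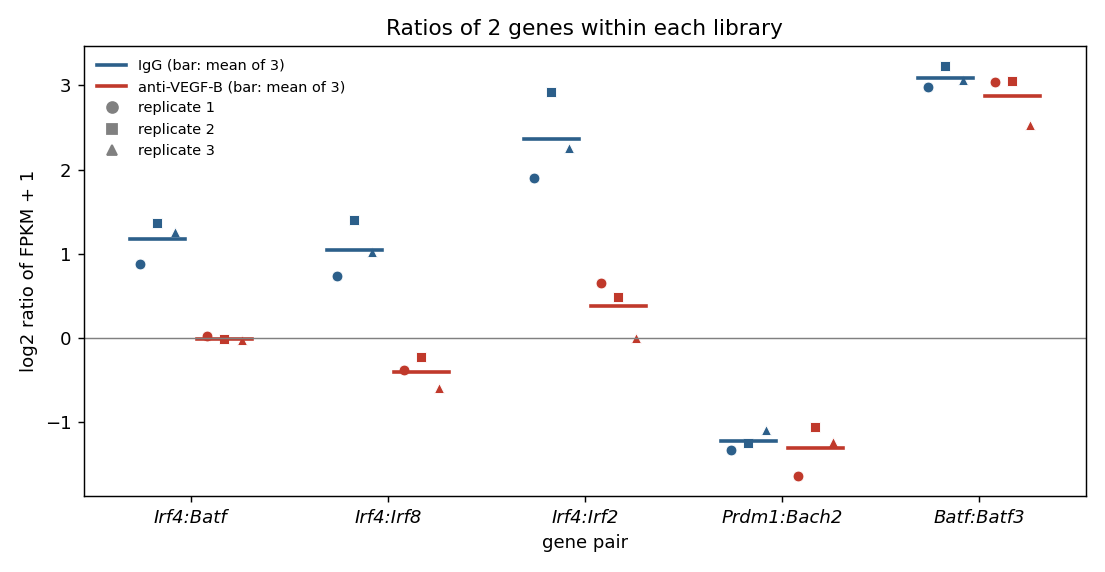
log2 ratio of FPKM + 1 of 5 gene pairs within each library, IgG in blue and anti–VEGF-B in red, with bars at the mean of 3. The ratios with *Irf4* do not overlap between treatments (mean log2 ratio to *Batf* 1.17 with IgG and -0.012 with anti–VEGF-B), whereas *Prdm1* to *Bach2* and *Batf* to *Batf3* overlap.

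The genes whose levels followed *Irf4* most closely were sought among 4920 other genes whose mean reached 5 FPKM. Likeness was measured as the root mean square difference over the 6 libraries of log2(FPKM + 1), with each gene set to its own IgG mean. The most similar was *Tmem127*, which encodes a transmembrane protein known to restrain mTOR signaling, at a difference of 0.134. It was followed by *Tgtp1* (0.162), *Egr1* (0.167), *Cyp51* (0.171) and *Irgm2* (0.212). *Egr1* is an immediate early gene of TCR signaling, *Cyp51* encodes an enzyme of cholesterol synthesis, and *Tgtp1* and *Irgm2* encode GTPases induced by interferon.

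All 5 were highest in IgG replicate 2 and lowest in anti–VEGF-B replicate 3, as *Irf4* was, which their choice by likeness favours. Of all tested genes, 45.0% were lowest in replicate 3 among the anti–VEGF-B libraries. *Egr1* was at 21.3, 39.0 and 24.1 FPKM with IgG and at 8.72, 8.62 and 4.49 with anti–VEGF-B. *Tmem127* was at 7.98, 14.1 and 9.42 with IgG and at 3.54, 3.33 and 2.17 with anti–VEGF-B. Reads of *Tgtp1* could have been split with a near-identical copy, so that its level is uncertain. The likeness is a description over 6 libraries of 2 groups, and any gene with a large fall comes close to *Irf4* by it.

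**Figure D4:**
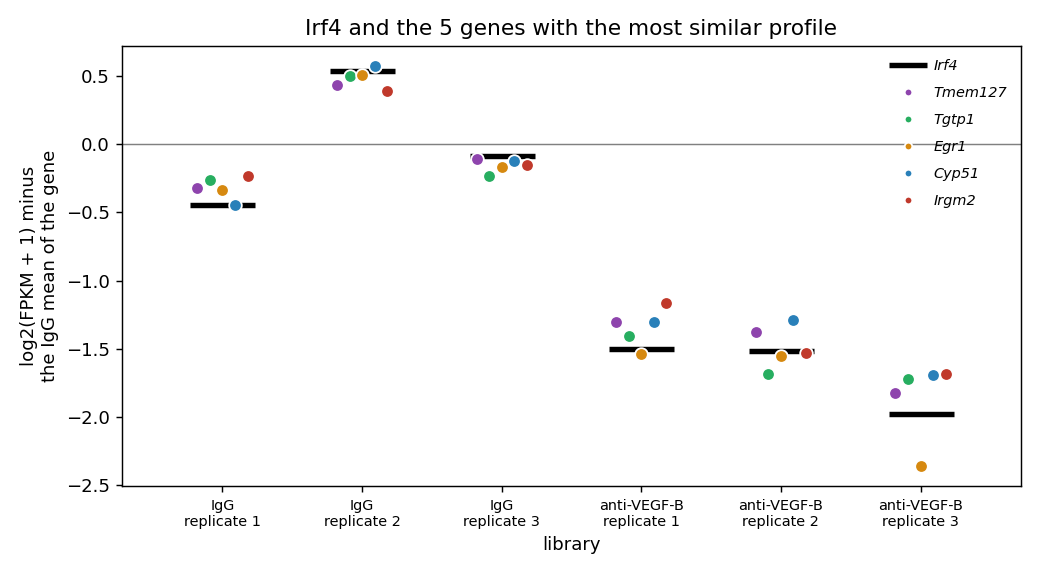
log2(FPKM + 1) minus the IgG mean of each gene in the 6 libraries, for *Irf4* (black bars) and the 5 genes with the smallest root mean square difference to it. In IgG replicate 2 *Irf4* is 0.53 above its IgG mean and in anti–VEGF-B replicate 3 it is 1.98 below it, and the other 5 genes lie near it in each library.

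Genes that act with or around these factors were taken from 9 lists written from general knowledge, with earlier results of these data known. Means are given with IgG first and anti–VEGF-B second. Of 116 genes, 103 were tested. Of these, 38 were called lower and 8 higher with anti–VEGF-B, or 44.7% called, against 28.7% of all tested genes. With no moderation of the variance, 0 were called by limma and 49 had an unadjusted p under 0.05, against 12 and 3208 of all 8816 tested genes. Their median difference was -0.19, against -0.15 for all genes. The split depended on the scaling between libraries, with 23 lower and 11 higher after quantile normalization, 16 lower and 18 higher after median centring, and 23 lower and 8 higher when scaled to *Actb*. Without anti–VEGF-B replicate 3 the count called was 19, and without IgG replicate 2 it was 26. These 2 fits called 9.76% and 15.3% of all tested genes. Some list genes called lower reached a mean of 1 FPKM only through the IgG libraries. With no filter, 34 of 110 list genes tested were called lower and 8 higher, where 24.4% of all tested genes were called.

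**Figure D5:**
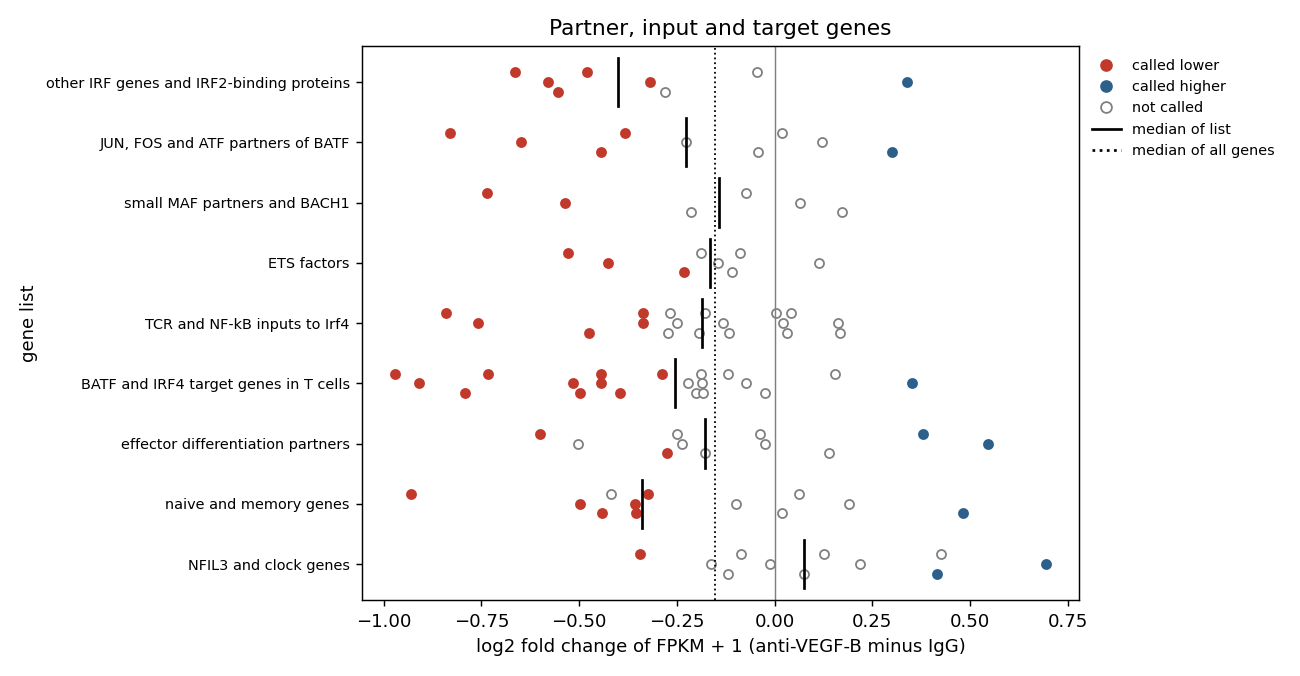
Difference between anti–VEGF-B and IgG on the log2(FPKM + 1) scale for each tested gene of the 9 lists, 1 point per gene (red called lower, blue called higher, open not called), with the median of each list as a black bar and that of all tested genes as a dotted line. The list of other IRF genes has the lowest median (-0.40) and that of *NFIL3* and clock genes the highest (0.075).

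Of 8 other IRF genes and genes of IRF2-binding proteins tested, 5 were called lower with anti–VEGF-B and 1 higher, with a median of -0.40, which stayed below 0 under the 3 other scalings (-0.20 to -0.33). *Irf9*, whose product is part of a DNA-binding complex induced by interferon, fell from 8.27 ± 1.39 to 5.17 ± 0.503 FPKM (difference -0.58, adjusted p = 0.0130 from limma). *Irf3*, a sensor-activated inducer of interferon genes, fell from 4.36 ± 0.376 to 2.65 ± 0.169 (-0.55, adjusted p = 0.00859 from limma). *Irf2bp1* and *Irf2bpl*, which encode partners and relatives of the IRF2 corepressor, had differences of -0.66 and -0.48. *Irf1* had 35.0 ± 3.22 and 27.9 ± 2.78 FPKM (-0.32), but was not called under any of the 3 other scalings. *Irf9*, *Irf2bp1*, *Irf2bpl* and *Irf1* were not called without anti–VEGF-B replicate 3, which left 1 gene of the list called. *Irf2bp1* was also not called after quantile normalization or without anti–VEGF-B replicate 2, *Irf2bpl* after median centring or without anti–VEGF-B replicate 1 or IgG replicate 2, and *Irf1* without anti–VEGF-B replicate 1 or IgG replicate 1 or 2.

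Genes of AP-1 and ATF proteins, among them the JUN partners of BATF, were split. Of the JUN genes, only *Jund* was called. Of 9 JUN, FOS and ATF genes tested, 4 were called lower and 1 higher (median -0.23), while median centring gave 1 lower and 2 higher (median -0.026) and quantile normalization 2 and 1. *Junb*, the most abundant, had 499 ± 23.2 and 507 ± 34.0 FPKM and was not called. *Jund* fell from 70.6 ± 11.8 to 51.3 ± 4.11 (-0.44, adjusted p = 0.0234 from limma), but was not called after median centring, when scaled to *Actb*, or without anti–VEGF-B replicate 1 or 3. *Fosl1* fell from 2.39 ± 0.904 to 0.873 ± 0.233 (-0.83, and -1.32 with a pseudocount of 0.1). *Fosl1* and *Fosb* reached a mean of 1 FPKM only through the IgG libraries, and both were also called with no filter. *Fos* (-0.65) and *Fosb* (-0.38) were called lower, but neither after quantile normalization nor after median centring, nor without anti–VEGF-B replicate 3. *Fos* was also not called without IgG replicate 1 or 2, and *Fosb* was called in only 4 of 12 alternatives, being lost as well when scaled to *Actb* and without anti–VEGF-B replicate 1 or 2 or IgG replicate 3. *Fosl2*, which is far more abundant, was called higher (0.30), but not without anti–VEGF-B replicate 2 or 3 or IgG replicate 2.

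BACH2 binds DNA together with small MAF proteins. Of 6 genes tested for these partners, for BACH1 and for the NRF factors that share their sites, 2 were called, both lower (median -0.14, and 0.058 after median centring, with 1 called in each direction). *Nfe2l2*, which encodes the antioxidant factor NRF2, fell from 19.9 ± 2.15 to 11.5 ± 0.779 FPKM (-0.74, adjusted p = 0.00488 from limma). *Mafg* fell from 15.8 ± 1.34 to 10.6 ± 2.11 (-0.54), but was not called after median centring or without anti–VEGF-B replicate 1 or 3 or IgG replicate 2. *Maff*, the most abundant, had 58.0 ± 3.66 and 60.6 ± 2.48 FPKM. Of 8 ETS factor genes tested, whose products include other partners of IRF4 and IRF8, 3 were called lower and 0 higher by limma (median -0.17, 0.035 after median centring). The largest difference was that of *Fli1*, at 13.7 ± 1.66 and 9.18 ± 0.986 FPKM (-0.53, adjusted p = 0.0122 from limma), followed by *Etv6* (-0.43) and *Elf1* (-0.23). *Etv6* was not called after median centring, when scaled to *Actb*, or without anti–VEGF-B replicate 3 or IgG replicate 2, and *Elf1* was not called under any of the 3 other scalings or with any 1 library left out. *Ets1*, the most abundant, had 60.9 ± 6.19 and 53.2 ± 2.29 FPKM and was not called.

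The TCR and NF-κB genes that lie upstream of *Irf4* were called in 5 of 18 cases, all lower, at 27.8% a share near the 28.7% of all genes. *Nfatc1*, a calcium-regulated factor downstream of the TCR, fell from 17.4 ± 2.78 to 9.23 ± 1.19 (-0.84, adjusted p = 0.00527 from limma). *Mtor* (-0.47), *Nfkb2* (-0.34) and *Relb* (-0.34), the last named after its values were seen, were also called. None of them was called without anti–VEGF-B replicate 3. *Mtor* was also not called after quantile normalization, *Nfkb2* after median centring, when scaled to *Actb* or without anti–VEGF-B replicate 1 or IgG replicate 2 or 3, and *Relb* under any of the 3 other scalings or without anti–VEGF-B replicate 1 or IgG replicate 1 or 2. *Zap70*, the most abundant of the list, had 90.5 ± 4.94 and 93.3 ± 4.07 FPKM. The median of the list was -0.18, and 0.016 after median centring, which gave 3 lower and 2 higher.

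Genes known as targets of BATF and IRF4 in T cells were called in 11 of 20 cases, 10 lower and 1 higher, with a median of -0.25. *Il2ra*, the α chain of the IL-2 receptor, fell from 117 ± 28.9 to 58.3 ± 7.01 FPKM (-0.97, adjusted p = 0.00665 from limma). *Il21*, a cytokine of follicular and Th17 cells, fell from 2.70 ± 0.581 to 0.961 ± 0.156 (-0.91). Like some others counted as lower here, it reached a mean of 1 FPKM only through the IgG libraries. *Il21* was also called with no filter. *Gzmb*, which encodes granzyme B, fell from 257 ± 67.6 to 146 ± 20.1 (-0.79, adjusted p = 0.0127 from limma). *Il4* fell from 13.3 ± 3.50 to 7.49 ± 0.836 (-0.73, adjusted p = 0.0138 from limma). *Ctla4*, the most abundant, had 432 ± 40.2 and 328 ± 28.9 FPKM (-0.40, adjusted p = 0.0179 from limma), but was not called after median centring or without anti–VEGF-B replicate 2 or 3. The gene called higher was *Tigit* (0.35), an inhibitory receptor named after its values were seen. Median centring gave 4 lower and 2 higher among the 20 genes, quantile normalization 7 and 1, and the fit with no filter 8 and 1. Without anti–VEGF-B replicate 3, 5 were called lower and 1 higher.

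Genes of factors that act beside them in effector differentiation were called in 4 of 11 cases, 2 in each direction, and median centring gave 1 lower and 3 higher. *Bhlhe40*, a basic helix-loop-helix repressor induced by TCR signaling, rose from 390 ± 37.9 to 568 ± 8.95 FPKM (0.55, adjusted p = 0.00634 from limma). *Hif1a*, the oxygen-sensing factor of glycolytic T cells, rose from 167 ± 15.8 to 217 ± 9.29 (0.38, adjusted p = 0.0139 from limma), but was not called without anti–VEGF-B replicate 3. *Ikzf3*, which encodes Aiolos, fell from 6.96 ± 1.11 to 4.22 ± 0.208 (-0.60, adjusted p = 0.00960 from limma). *Ezh2* was called lower (-0.28), but not under any of the 3 other scalings, and in 5 of 14 alternatives in all; of the libraries left out in turn, only dropping anti–VEGF-B replicate 2 kept its call.

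Genes of naive and memory T cells, several of which the effector factors repress, were called in 7 of 12 cases, 6 lower and 1 higher (median -0.34, and -0.14 to -0.27 under the 3 other scalings). Median centring gave 2 lower and 2 higher, quantile normalization 3 and 2, and the fit without anti–VEGF-B replicate 3 gave 2 and 1. The fit with no filter gave 4 lower and 1 higher. *Ccr7*, the receptor for entry into lymph nodes, fell from 160 ± 33.4 to 83.1 ± 14.3 FPKM (-0.93, adjusted p = 0.00714 from limma). *Tcf7*, which encodes TCF1, fell from 75.1 ± 3.94 to 55.2 ± 5.50 (-0.44, adjusted p = 0.0106 from limma), but was not called after median centring. *Bcl11b*, a factor of T cell identity, fell from 19.4 ± 1.62 to 13.5 ± 1.90 (-0.50), but was not called without anti–VEGF-B replicate 3. *Foxo1*, a factor of quiescence, rose from 32.4 ± 2.45 to 45.6 ± 4.02 (0.48, adjusted p = 0.00875 from limma).

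NFIL3 represses genes at sites that clock factors also bind. Of 11 clock genes tested, 1 was called lower and 2 higher, against 0 and 5 after median centring and 0 and 4 after quantile normalization by limma. The share called as deposited, 27.3%, was near the 28.7% of all tested genes. Over all tested genes, 429 were called higher as deposited, 1365 after median centring and 880 after quantile normalization. The median of the list was 0.075, or 0.23 relative to all genes. *Per1* rose from 61.2 ± 5.54 to 99.7 ± 8.20 FPKM (0.70, adjusted p = 0.00488 from limma). *Bhlhe41*, a relative of *Bhlhe40*, rose from 1.65 ± 0.157 to 2.54 ± 0.346 (0.42, adjusted p = 0.0245 from limma), but was not called without anti–VEGF-B replicate 2 or 3 or IgG replicate 2. *Cry1* was called lower (-0.35), but not under any of the 3 other scalings or without anti–VEGF-B replicate 1 or 3 or IgG replicate 2. *Dbp*, which encodes an activator that competes with NFIL3 and is named here after its values were seen, had 4.84 ± 0.540 and 5.15 ± 0.566 FPKM and was not called.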

How the data were processed

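RNA of activated CD4+ T cells was measured in 6 libraries, 3 per treatment. The authors aligned the reads to GRCm38 with hisat2, assembled them with StringTie and quantified them with Ballgown, and the authors deposited 1 table of protein-coding genes in FPKM. The methods mention raw counts, but fractional values show that the table holds none, and FPKM was inferred as the unit from the tools. No step between libraries and no filter are stated. At most 2.62% of low genes (under 0.3 FPKM) shared a ratio in a pair of libraries, so that reads could not be recovered and no count model was run.

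For 8816 genes whose mean reached 1 FPKM, log2(FPKM + 1) was fitted with limma 3.58.1 (empirical Bayes with trend, R 4.3.3) without covariates, and p values were adjusted over all of them (Benjamini-Hochberg). The method was tested on simulated data. Coordinates are those of the table, and overlapping genes were looked up in RefSeq GRCm38.

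The members and lists were chosen with earlier results of these data known. Genes named were the members, the 5 genes most like *Irf4*, and from each list up to 4 called genes with the largest differences and its most abundant gene; *Fosl2*, *Relb*, *Tigit*, *Id2* and *Dbp* were named after their values were seen. Some genes that the rule names are not reported here. Alternatives changed the scaling, filter, pseudocount, moderation, replicate block and libraries.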

Additional observations from a re-analysis of the deposited data

How the results depend on the processing

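The depth is unknown, and 3 libraries per group limit the precision. Of all tested genes, 2528 were called, 12 with no moderation, 1331 with a mean of at least 5 FPKM, 1674 when scaled to *Actb*, and 865 to 2469 without single libraries (865 on dropping anti–VEGF-B replicate 3 and 1330 on dropping IgG replicate 2). The split was 2099 lower and 429 higher as deposited, while quantile normalization gave 913 and 880, median centring 807 and 1365, and scaling to *Actb* 1309 and 365. Of the 8 genes of the group, 4 were called, and 0 by limma with no moderation (3 at an unadjusted p under 0.05, against 3208 of all tested genes). Without single libraries, 2 to 4 were called, with 2 left on dropping replicate 2 or 3 of anti–VEGF-B or replicate 2 of IgG. These 3 fits called 19.7%, 9.76% and 15.3% of all tested genes. The median difference of the 8 genes, -0.16, was 0.014 with quantile normalization (0.0077 for all genes) and 0.045 with median centring (0.049 for all genes). It ran from -0.21 to -0.069 without single libraries. Of the genes of the 9 lists, 46 were called, and 0 by limma with no moderation (49 at an unadjusted p under 0.05, against 3208 of all tested genes). Without single libraries, 19 to 41 were called, with 19 on dropping anti–VEGF-B replicate 3, where 9.76% of all tested genes were called. Within-library log2 ratios ranged, without single libraries, from -1.33 to -1.08 for *Irf4* to *Batf*, and changed sign for *Prdm1* to *Bach2* (-0.21 to 0.084). The difference in *Irf4* ran from -1.89 to -1.40 over 14 alternatives. Same-numbered libraries correlated at -0.030, 0.11 and 0.089 in their deviations from the group means, and 3 of 6 correlated best with their own number. With 3 libraries per group, these values cannot tell whether same-numbered libraries share a mouse, culture or day. The replicate block gave 2578 genes, 4 members and 46 list genes called.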

Other observations

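*Id2*, which encodes a helix-loop-helix inhibitor that works beside the effector factors, was singled out after its values were seen. It was at 181, 177 and 183 FPKM in the IgG libraries. In the anti–VEGF-B libraries it was at 102, 95.5 and 208, so that replicates 1 and 2 lay far under and replicate 3 above every IgG library. Its difference was -0.50 (standard error 0.243, adjusted p = 0.142 from limma), and it was not called. For *Irf4* and *Batf*, replicate 3 was instead the lowest of the anti–VEGF-B libraries.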
